A study of Mus musculus with 3 samples.

Results

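The major urinary proteins (MUPs) are encoded by a dense family of near-identical genes, and their liver transcripts were followed here in 3 bulk RNA libraries. The family was taken as every row of the deposited expression table whose name begins with Mup and a digit or hyphen, which gave 51 of 35275 rows. These were 21 genes and 30 pseudogenes, of which 50 lay on chromosome 4 between 59956804 and 62150863, a stretch of 2.19 Mb in the coordinates of the table, and 1, Mup-ps22, lay on chromosome 11. Livers were from male C57BL/6 mice, aged 10 weeks at the start of the diets. Behind the TH-treated NASH library were mice kept for 16 weeks on a western diet with liquid fructose, which were then also given T3 (35 ng per g of mouse) and T4 (7 ng per g) in drinking water with 15% fructose for 8 weeks. The NASH library came from untreated mice on the same diet, with 24 weeks named in its label, and the control library from untreated mice on normal chow. NASH stands for non-alcoholic steatohepatitis, a fatty and inflamed liver, and TH for thyroid hormone. Each group had 1 library, and whether animals were pooled in it is not stated, so no difference below has a replicate check and none was tested.

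MUPs are small lipocalins, barrel-shaped proteins that the liver secretes into blood and that pass into urine, where they bind volatile pheromones and release them slowly from scent marks. In male mouse liver their genes are among the most strongly transcribed, and their output is known to respond to androgens, growth hormone, glucocorticoids and thyroid hormone. The genes are usually divided into a central class, whose members are almost the same in sequence and stand in long repeated units, and a more varied peripheral class that flanks them. Here the central class was Mup1, Mup2 and Mup7 to Mup19, 15 genes, and the peripheral class was Mup3, Mup4, Mup5, Mup6, Mup20 and Mup21. Mup20 encodes darcin, a male pheromone protein that makes scent marks attractive to females, and Mup4 and Mup5 are known mainly from nasal, lacrimal and salivary glands.

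Of the 21 genes, 20 were listed on the minus strand and Mup6 on the plus strand, and the starts of successive genes were a median of 79884 bases apart (7490 to 486924). Each of the 15 central genes was followed by a pseudogene on the opposite strand, with a median gap of 15271 bases (984 to 24704), which is the repeated unit of the family. Promoter windows from 250 bases before to 50 bases after the start were found for 14 of the 21 genes in the RefSeq table (build GRCm38.p6). None was found for Mup1, Mup5, Mup8, Mup12, Mup13, Mup16 and Mup20. The windows of central Mup17 and Mup9 and of peripheral Mup3 and Mup21 are shown so that the classes can be compared. They lie on the minus strand, at chr4:61595783-61596082 for Mup17, chr4:60421903-60422202 for Mup9, chr4:62087268-62087567 for Mup3 and chr4:62150792-62151091 for Mup21. Capitals mark an A-rich stretch and, after it, the string TATATAA.
Mup17: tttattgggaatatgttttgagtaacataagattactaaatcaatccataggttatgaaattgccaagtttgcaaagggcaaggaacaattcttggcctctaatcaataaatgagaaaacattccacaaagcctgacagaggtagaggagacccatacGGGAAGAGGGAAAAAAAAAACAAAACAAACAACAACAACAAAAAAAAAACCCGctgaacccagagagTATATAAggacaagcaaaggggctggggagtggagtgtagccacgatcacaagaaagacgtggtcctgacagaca
Mup9: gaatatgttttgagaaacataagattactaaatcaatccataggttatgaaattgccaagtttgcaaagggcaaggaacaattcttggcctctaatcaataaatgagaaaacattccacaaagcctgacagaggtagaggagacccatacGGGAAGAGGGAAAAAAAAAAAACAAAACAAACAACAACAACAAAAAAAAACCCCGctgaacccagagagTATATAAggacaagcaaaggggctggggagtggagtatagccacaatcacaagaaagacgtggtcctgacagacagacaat
Mup3: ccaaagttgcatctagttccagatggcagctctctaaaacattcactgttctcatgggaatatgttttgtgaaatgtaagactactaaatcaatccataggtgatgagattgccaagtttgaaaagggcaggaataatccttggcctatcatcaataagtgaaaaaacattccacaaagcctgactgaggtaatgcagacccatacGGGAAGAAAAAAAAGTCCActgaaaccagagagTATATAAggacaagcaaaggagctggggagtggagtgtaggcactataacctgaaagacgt
Mup21: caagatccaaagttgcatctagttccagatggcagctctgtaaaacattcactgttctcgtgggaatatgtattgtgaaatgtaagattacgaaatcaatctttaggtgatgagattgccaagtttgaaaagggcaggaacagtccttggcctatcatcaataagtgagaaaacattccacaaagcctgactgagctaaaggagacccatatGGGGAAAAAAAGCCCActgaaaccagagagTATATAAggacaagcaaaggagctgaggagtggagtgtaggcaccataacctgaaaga
Between matching flanks, which differ by single letters among the windows shown, the A-rich stretch was 53 bases long in Mup17 and 55 bases in Mup9, against 19 bases in Mup3 and 16 bases in Mup21. Over the windows that held it, its length was 44 to 56 bases in 9 central genes (median 53) and 16 to 22 bases in 4 peripheral genes (median 19.5). The letter A made up 64.8 to 80.4% of it in the central genes and 50 to 77.3% in the peripheral genes. In Mup21 and Mup3 this share was 50% and 57.9%, so the name A-rich holds less well there. The Mup7 window ended inside the stretch and gave no length. The stretch and the string TATATAA were picked after the sequences had been seen, and the annotated starts differ between genes, so the string ends close to the start in Mup3 and Mup21 and farther upstream in Mup9 and Mup17. On either strand TATATAA was in 13 of the 14 Mup windows and in 3.24% of all 32851 windows. It overlaps TATAAA, which was in 2 Mup windows (Mup4 and Mup6) and in 13.6% of all windows. The letters TTCNNNGAA, the core of STAT5 elements, were in 0 of 14 Mup windows and 8.30% of all windows. TTGCNNAA, the core of C/EBP elements, was also in 0 of 14 and in 10.8% of all, and AGGTCA, the core of thyroid hormone and other nuclear receptor elements, was in 1 of 14 (Mup4) and in 16.3% of all. The Mup windows are related copies, with a median identity of 84.6% within the central class and 79.3% within the peripheral class. They are therefore not 14 independent windows to set beside the share of all windows. A match or its absence describes only these windows, and regulatory sites outside them were not searched.

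The tissue label could be checked against its markers: all 8 hepatocyte markers were present. Their summed FPKM (fragments scaled to gene length and to the library total) was 19983.5 in the TH-treated NASH library, 26223 in the NASH library and 40045 in the control library. Alb, the albumin gene, made up most of each sum, at 14907, 20265 and 32685 FPKM. On a log2(FPKM + 1) scale, 1 of the 8 (Tat) was at least 2-fold higher in TH-treated NASH than in NASH and 0 were lower (median -0.10). In NASH against control 0 were higher and 0 lower (median -0.42). The TH-treated NASH, NASH and control libraries held 38303410, 47009255 and 54576236 gene-assigned fragments. Markers of other cell types moved as well: summed macrophage markers (7 of 8 found, none at 0) were 635, 430.1 and 140.1 FPKM in the TH-treated NASH, NASH and control libraries, and the 5 blood markers were 1757, 391 and 316 FPKM. The 7 stellate cell and matrix markers summed to 102, 144 and 71.5 FPKM, the 5 cholangiocyte markers to 46.6, 100.6 and 30.3 FPKM, and the 5 fat tissue markers to 30.6, 78.6 and 10.8 FPKM, with Plin1 and Lep, a lipid droplet coat and a fat cell hormone, at 0 in the TH-treated NASH and control libraries. Such sums follow their most abundant genes: of 4 cholangiocyte markers at 1 FPKM or more in either library, 1 was at least 2-fold higher in NASH than in control and 0 lower. The part of these markers in the Mup results was not tested. In bulk liver, fewer hepatocytes and less Mup RNA per hepatocyte cannot be told apart.

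As a sum, the family differed little between libraries, while its make-up differed by class. The 51 members summed to 22323 FPKM in the TH-treated NASH library, 19359 FPKM in the NASH library and 20060.5 FPKM in the control library, which was 2.11%, 1.83% and 1.92% of all gene-assigned fragments. The sum was 1.15-fold higher in the TH-treated NASH library than in the NASH library, and in the NASH library it was 0.965 of the control level. Against control, the TH-treated NASH sum was 1.11-fold higher as deposited, with log2 ratios of -0.02 and -0.04 after median-of-ratios and TMM scaling, so the order of these sums depended on the scaling.

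The central class summed to 16490.4 FPKM in the TH-treated NASH library, 2056 FPKM in the NASH library and 3404 FPKM in the control library. The peripheral class summed to 5664, 17217 and 16589 FPKM in the same libraries. Central genes thus made up 73.9% of the Mup sum in the TH-treated NASH library, 10.6% in the NASH library and 17.0% in the control library, and peripheral genes 25.4%, 88.9% and 82.7%. The ratio of central to peripheral FPKM was 2.91 in the TH-treated NASH library, 0.119 in the NASH library and 0.205 in the control library. The central sum was 8.02-fold higher and the peripheral sum 3.04-fold lower in the TH-treated NASH library than in the NASH library. As ratios of the shares of library fragments these were 7.76-fold higher (95% interval 7.71 to 7.81) and 2.96-fold lower (2.94 to 2.97). Intervals here and below are exact intervals of the fragment counts and cover counting error only, since PCR copies are not independent molecules and differences between animals were not measured. In the NASH library against control the central sum was 1.66-fold lower and the peripheral sum 1.04-fold higher. The peripheral sum turned lower in NASH under median-of-ratios and TMM scaling, at log2 ratios of -0.16 and -0.12.

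**Figure D1:**
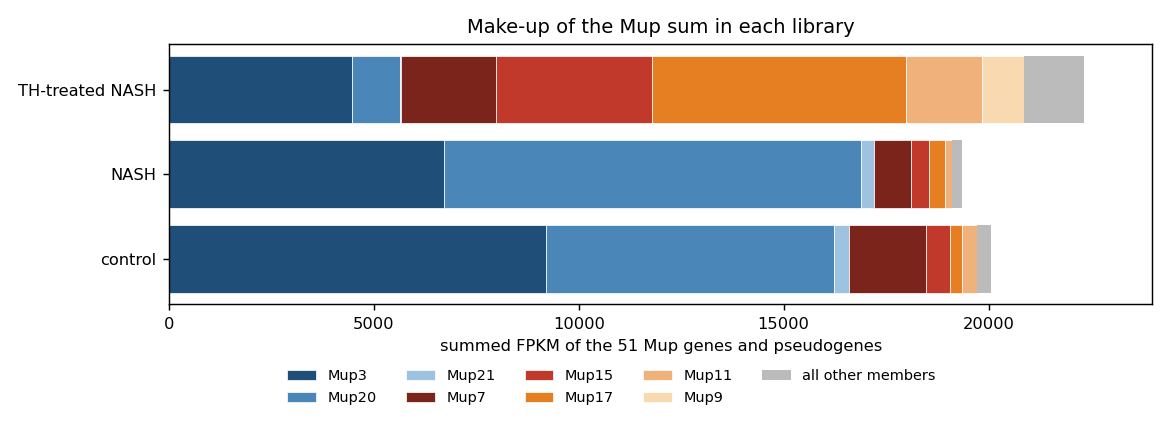
Summed FPKM of the 51 Mup members in each library, with 8 abundant members in colour (blue for peripheral, red to orange for central) and all others in grey. The grey part includes Mup16, among the first 8 members in the TH-treated NASH library, and Mup14, among them in the NASH and control libraries. Peripheral Mup3 and Mup20 fill most of the NASH and control bars, and central Mup17, Mup15, Mup7, Mup11 and Mup9 fill most of the TH-treated NASH bar.

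The leading genes changed with the class. In the TH-treated NASH library Mup17 came first with 27.8% of the Mup sum, and Mup17, Mup3 and Mup15 together held 64.8%. In the NASH library Mup20 came first with 52.5%, and Mup20 and Mup3 held 87.2%. In the control library Mup3 came first with 45.9%, and Mup3 and Mup20 held 80.9%. It took 7 members to reach 90% of the sum in the TH-treated NASH library and 3 members in each of the other libraries. Ranked among all genes of a library by FPKM, Mup17 stood 12th in the TH-treated NASH library, 166th in the NASH library and 235th in the control library, while Mup20 stood 59th, 5th and 8th. In descending order the first 8 members were Mup17, Mup3, Mup15, Mup7, Mup11, Mup20, Mup9 and Mup16 in the TH-treated NASH library. They were Mup20, Mup3, Mup7, Mup15, Mup17, Mup21, Mup11 and Mup14 in the NASH library and Mup3, Mup20, Mup7, Mup15, Mup11, Mup21, Mup17 and Mup14 in the control library. Neighbours in these orders had overlapping counting intervals in 10 of 28 pairs, 12 of 24 pairs and 11 of 25 pairs of members at 1 FPKM or more, and in the top 8 this was so only for Mup11 and Mup21 in the control library.

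**Figure D2:**
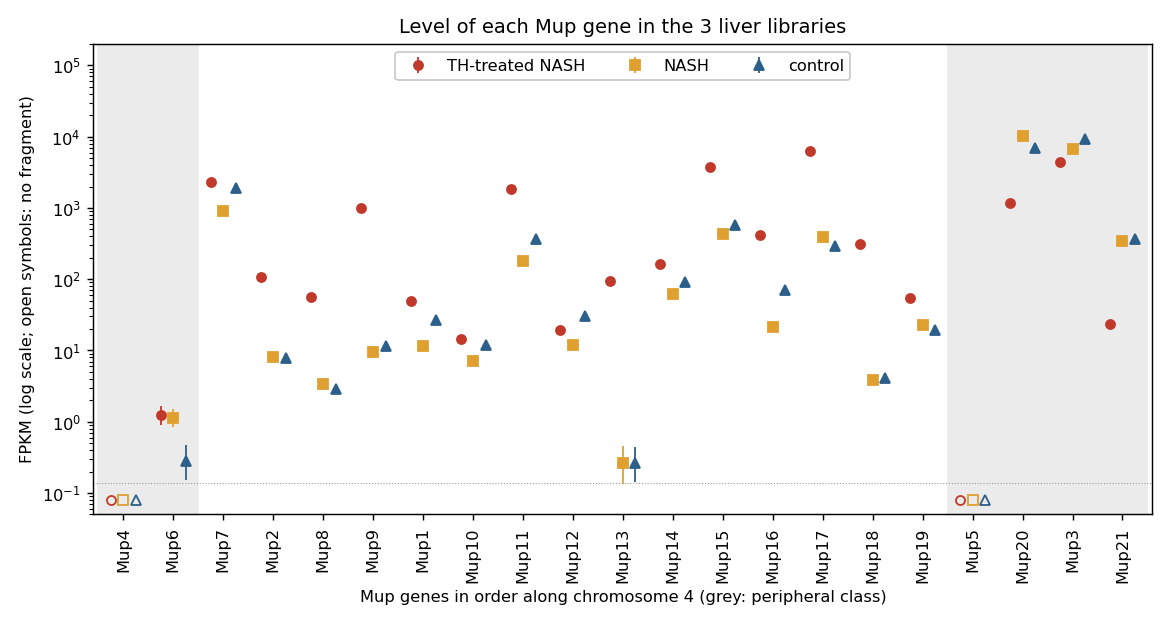
FPKM of the 21 Mup genes on a log axis, in order along chromosome 4, in the TH-treated NASH (circles), NASH (squares) and control (triangles) libraries, with exact 95% counting intervals where they exceed the symbol and open symbols for genes with no fragment. Central genes stand above their NASH values in the TH-treated NASH library, and Mup20, Mup3 and Mup21 stand below theirs.

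The first comparison sets TH-treated NASH against NASH, mice with and without hormone on the same diet. A member was counted as higher or lower when its FPKM reached 1 in either library and its ratio passed 2-fold on the log2(FPKM + 1) scale, a scale that understates the change of low genes. By this count 18 of the 51 members were higher, 2 were lower and 9 were within 2-fold, while 22 did not reach 1 FPKM in either library. Among all 11734 genes that passed the same filter, 2.73% were higher and 2.77% lower, 5.5% in all. Of the 15 central genes 13 were higher and 0 lower (median log2 ratio 3.37), and of the 4 peripheral genes past the filter 0 were higher and 2 lower (median -1.85), where the median of all genes was -0.03. Mup13, Mup-ps10, Mup-ps17 and Mup-ps23 passed the filter only through the TH-treated NASH library.

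Among the central genes, Mup17 had 6198 FPKM in the TH-treated NASH library, 386 FPKM in the NASH library and 290.1 FPKM in the control library. Its TH-treated NASH level was 16.0-fold the NASH level (15.8 to 16.3). Mup15 had 3798, 429 and 573 FPKM in those libraries (8.86-fold), and Mup11 had 1873, 179.8 and 371 FPKM (10.4-fold). These 3 genes carried most of the added central FPKM in the TH-treated NASH library. Mup7, the leading central gene in the other libraries, had 2317 FPKM in the TH-treated NASH library, 899 FPKM in the NASH library and 1890.4 FPKM in the control library. It was 2.58-fold higher in the TH-treated NASH library than in the NASH library and within 2-fold of the control library, so the NASH library was the low one for this gene.

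Another set of central genes was low without hormone. Mup9 had 1009 FPKM in the TH-treated NASH library, 9.59 FPKM in the NASH library and 11.6 FPKM in the control library, a level 105-fold higher than in NASH (95.4 to 116). Mup18 had 310.0, 3.89 and 4.06 FPKM in the same libraries (79.7-fold, 68.5 to 93.3). Mup13 had 95.8, 0.259 and 0.261 FPKM, from 3609, 12 and 14 fragments, so its 369-fold ratio had a wide interval (211 to 715). For Mup9, Mup18 and Mup13 the NASH and control levels were close to each other and only the TH-treated NASH library was high. Mup2 behaved in the same manner, at 107, 8.22 and 7.89 FPKM in the TH-treated NASH, NASH and control libraries (13.0-fold over NASH), and so did Mup8, at 56.5, 3.43 and 2.86 FPKM (16.5-fold). Mup16 had 424 FPKM in the TH-treated NASH library, 21.5 FPKM in the NASH library and 71.5 FPKM in the control library, with a ratio to NASH of 19.7 (18.4 to 21.1).

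The remaining central genes differed less. Mup14 had 163, 61.5 and 91.7 FPKM in the TH-treated NASH, NASH and control libraries, Mup1 had 48.7, 11.5 and 27.1 FPKM, and Mup19 had 55.2, 23.0 and 19.3 FPKM. Relative to the NASH library these were 2.65-fold, 4.24-fold and 2.40-fold higher with hormone. Mup10, at 14.6, 7.02 and 12.0 FPKM, and Mup12, at 19.7, 11.9 and 30.9 FPKM, were the 2 central genes that stayed within 2-fold of NASH on the log2(FPKM + 1) scale.

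The peripheral genes went the other way or were almost silent. Mup20, the darcin gene, had 1177 FPKM in the TH-treated NASH library, 10157 FPKM in the NASH library and 7015 FPKM in the control library. With hormone it was 8.63-fold lower than in NASH (8.54 to 8.71). Mup21 had 23.8, 339.5 and 368 FPKM in the same libraries and was 14.3-fold lower with hormone than in NASH (13.2 to 15.5). Mup3 had 4462 FPKM in the TH-treated NASH library, 6719 FPKM in the NASH library and 9205 FPKM in the control library, 1.51-fold lower with hormone than in NASH and so within 2-fold. Mup6 had 1.24, 1.13 and 0.277 FPKM, from 44, 49 and 14 fragments. Mup4 and Mup5 had no fragment in any library, where 3 fragments would correspond to at most 0.0849 FPKM. Mup3, Mup20 and Mup21 stand next to each other at the far end of the cluster, and no peripheral gene was at least 2-fold higher with hormone.

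**Figure D3:**
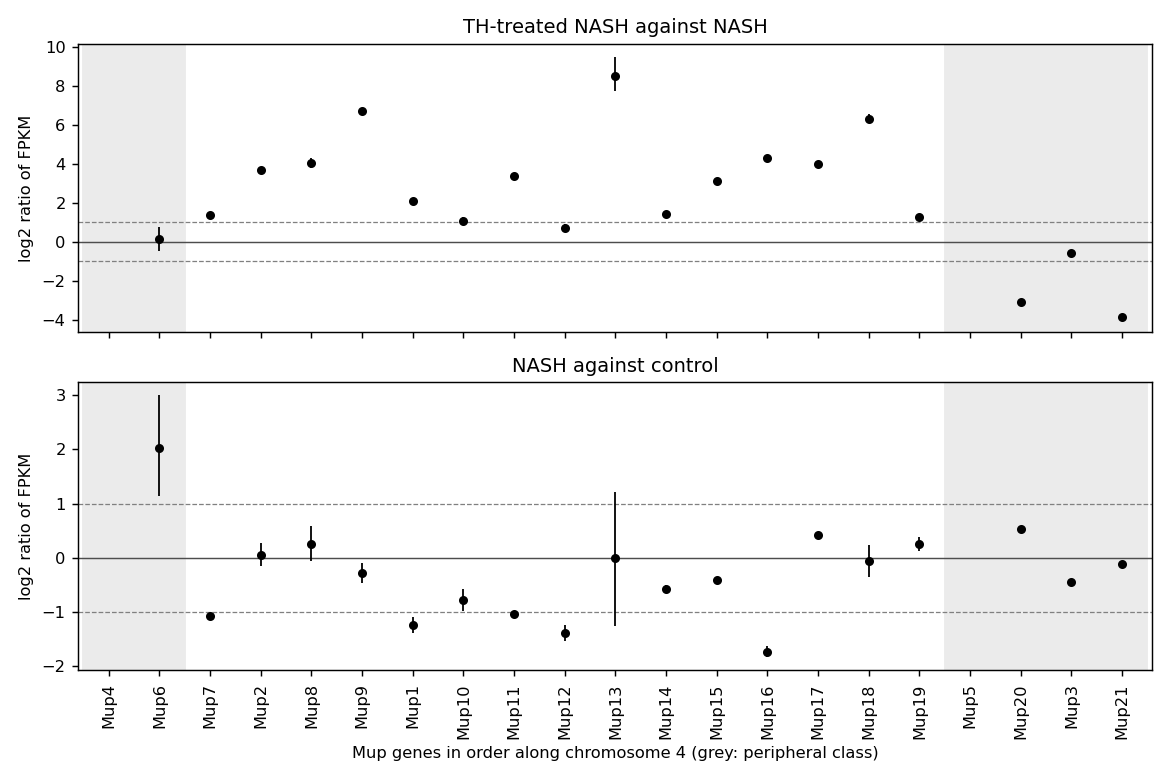
Log2 ratio of FPKM for each Mup gene in order along chromosome 4, for TH-treated NASH against NASH (top) and NASH against control (bottom), with exact 95% counting intervals and dashed lines at 2-fold; Mup4 and Mup5 have no fragments and no point. In the top panel the central genes lie above 0, up to Mup13, and Mup20, Mup3 and Mup21 lie below it; in the bottom panel most genes lie within 2-fold and Mup16 is lowest.

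The second comparison sets NASH against control, untreated mice on the western diet and on chow. Here 1 of the 51 members was higher, 6 were lower, 20 were within 2-fold and 24 did not reach 1 FPKM in either library. Among all 11499 genes that passed, 3.33% were higher and 0.774% lower, 4.1% in all. Of these called genes 81.1% were higher as deposited, against 65.3% with median-of-ratios scaling and 68.4% with TMM scaling, while the count of members was the same under each. The lower members were the central genes Mup16, 3.32-fold (3.09 to 3.57), Mup12, 2.61-fold, Mup1, 2.36-fold, Mup7, 2.10-fold, and Mup11, 2.06-fold, together with the pseudogene Mup-ps20, 9.39-fold (4.92 to 20.1). The 14 central genes past the filter had 0 higher and 5 lower and a median log2 ratio of -0.49, the 4 peripheral genes had 0 higher and 0 lower and a median of 0.21, and all genes had a median of 0.12. Mup6 passed the filter only through the NASH library, and Mup-ps6 and Mup-ps20 only through the control library. Within the peripheral class Mup20 was 1.45-fold higher and Mup3 1.37-fold lower in the NASH library, so the leading pair exchanged places at the top of the order. Among central genes Mup17 was 1.33-fold higher, while Mup9, Mup18 and Mup2 lay within 2-fold of control. Mup6 was 4.06-fold higher by its raw FPKM ratio (2.21 to 7.97) but within 2-fold once 1 FPKM was added to both levels. Mup11 and Mup7 lay just past the 2-fold line, with log2(FPKM + 1) ratios of -1.04 and -1.07.

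The third comparison sets TH-treated NASH against control. Of the 51 members 17 were higher, 4 were lower, 10 were within 2-fold and 20 did not reach 1 FPKM in either library. Among the 11474 genes that passed, 5.57% were higher and 2.42% lower, 7.99% in all. Here 69.7% of called genes were higher as deposited, 55.0% with median-of-ratios scaling and 53.4% with TMM scaling, again with the same count of members. Of the 15 central genes 10 were higher and 0 lower (median log2 ratio 2.55). Of the 4 peripheral genes past the filter 0 were higher and 3 lower (median -1.81), and all genes had a median of 0.12. Mup6, Mup13, Mup-ps10, Mup-ps17 and Mup-ps23 passed the filter only through the TH-treated NASH library, and Mup-ps6 and Mup-ps20 only through the control library. The central genes past 2-fold were Mup13 (367-fold), Mup9 (87.1-fold), Mup18 (76.4-fold), Mup17 (21.4-fold), Mup8 (19.7-fold), Mup2 (13.6-fold), Mup15 (6.63-fold), Mup16 (5.93-fold), Mup11 (5.05-fold) and Mup19 (2.86-fold). Mup21 was 15.5-fold lower, Mup20 5.96-fold lower and Mup3 2.06-fold lower than in the control library. The 3 comparisons share libraries, so they are not independent of one another.

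Of the 30 pseudogenes, 12 reached 1 FPKM in at least 1 library and 10 had no fragment in any library. The other pseudogenes stayed at or below 0.998 FPKM. The pseudogene sum was 168 FPKM in the TH-treated NASH library, 86.2 FPKM in the NASH library and 67.9 FPKM in the control library, always under 1% of the Mup sum. Many pseudogenes share transcript sequence with other members, as described below, so their levels may hold reads of other copies. For TH-treated NASH against NASH 5 of the 10 pseudogenes past the filter were higher and 0 lower, against 2.73% and 2.77% of all genes. The 5 were Mup-ps4, at 14.9, 2.25 and 1.26 FPKM in the TH-treated NASH, NASH and control libraries, Mup-ps10, at 21.4, 0.612 and 0 FPKM, Mup-ps12, at 27.2, 10.9 and 6.07 FPKM, Mup-ps17, at 3.83, 0 and 0.168 FPKM, and Mup-ps23, at 8.45, 0.203 and 0.291 FPKM. Mup-ps10 was 35.0-fold higher with hormone than in NASH (21.3 to 61.7) and at least 217-fold higher than in control, where 3 fragments in that library set the bound. Mup-ps17 was at least 13.1-fold higher than in NASH on the same bound.

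The other pseudogenes past 1 FPKM differed less or ran the other way. Mup-ps13 had 36.1, 23.3 and 27.7 FPKM in the TH-treated NASH, NASH and control libraries, Mup-ps14 had 20.3, 12.5 and 3.82 FPKM, and Mup-ps16 had 26.9, 27.4 and 15.4 FPKM. Mup-ps14 was the 1 member higher in the NASH library than in control, 3.27-fold (2.63 to 4.10). Of its transcript windows of 50 bases only 12.6% occurred in no other gene. Mup-ps15 had 3.87, 1.66 and 1.02 FPKM, Mup-ps7 had 2.06, 4.06 and 3.93 FPKM, and Mup-ps6 had 0.192, 0.468 and 1.18 FPKM. Mup-ps20, which lies beside the peripheral genes, had 0 FPKM in the TH-treated NASH library, 0.547 FPKM in the NASH library and 5.13 FPKM in the control library, so it was at least 25.5-fold lower with hormone than in control. In the 15 pairs of a central gene and its pseudogene, the gene was higher with hormone than in NASH in 13 pairs and both were higher in 3, which were Mup9 with Mup-ps4, Mup13 with Mup-ps10 and Mup15 with Mup-ps12. In 7 of the 15 pairs the pseudogene did not reach 1 FPKM in either library. The gene was above its pseudogene in 15 of 15 pairs in the TH-treated NASH library, 12 of 15 in the NASH library and 15 of 15 in the control library.

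Genes of other kinds in and around the cluster were read for position. The nearest genes outside it, 5 on each side, were Inip, Snx30, Gm12543, Gm12542 and Slc46a2 before Mup4, and Zfp37, Slc31a2, Fkbp15, Slc31a1 and Cdc26 after Mup21. Of these, Gm12543, Gm12542 and Slc46a2 had no fragment and Zfp37 at most 0.183 FPKM, too low to be counted, and the other 6 lay within 2-fold in each comparison. Of the 6 other genes between the first and last member, Gm13773, Gm21286, Gm12573 and Gm12910 stayed below 1 FPKM. Gm13775, which overlaps Mup-ps16, had 9.07, 8.41 and 4.73 FPKM in the TH-treated NASH, NASH and control libraries, and because the strand setting of the counting is unknown here, reads of such overlapping genes cannot be told apart. Gm12909, typed as antisense and 946 bases from Mup3 without overlapping it, had 3.41, 12.1 and 16.0 FPKM and was 3.56-fold lower with hormone than in NASH (2.79 to 4.59), the same direction as Mup3.

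How far single central genes can be told apart depends on their sequence. Coding sequences of central genes were a median of 99.1% identical (98.3 to 99.8 over 105 pairs) in the GENCODE M21 annotation, those of peripheral genes 88.4% (83.3 to 94.9 over 15 pairs), and those between classes 89.3% (83.1 to 91.4 over 90 pairs). Mup11 and Mup18 differ by 1 base over the coding sequence, as do Mup9 and Mup19, and Mup16 and Mup19. Mup3 and Mup21 differ by 28 bases. Of the windows of 50 bases in their transcripts, a median of 14.6% occurred in no other gene for central genes (0 to 38.4%), against 84.8% for peripheral genes (49.5 to 96.0%). With windows of 100 bases the medians were 24.3% and 98.2%. The 27 pseudogenes in the annotation had a median of 24.7% with windows of 50 bases (0 to 100%). Mup3, at 86.7%, and Mup21, at 80.7%, had more sequence of their own than any central gene, while Mup20, at 49.5%, stood closer to the highest central gene, Mup1, at 38.4%. With windows of 100 bases Mup20 had 61.2% and Mup1 44.3%. Mup1 had 4 annotated transcripts and Mup20 had 1, so these shares rest on unlike sets of windows. Mup20 shared windows of 100 bases with 1 other member, Mup1 with 16, and the other central genes with 15 or 16. The level of any single central gene, or of a pseudogene with few windows of its own, is therefore uncertain. Windows shared within a class but not between classes were not counted.

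**Figure D4:**
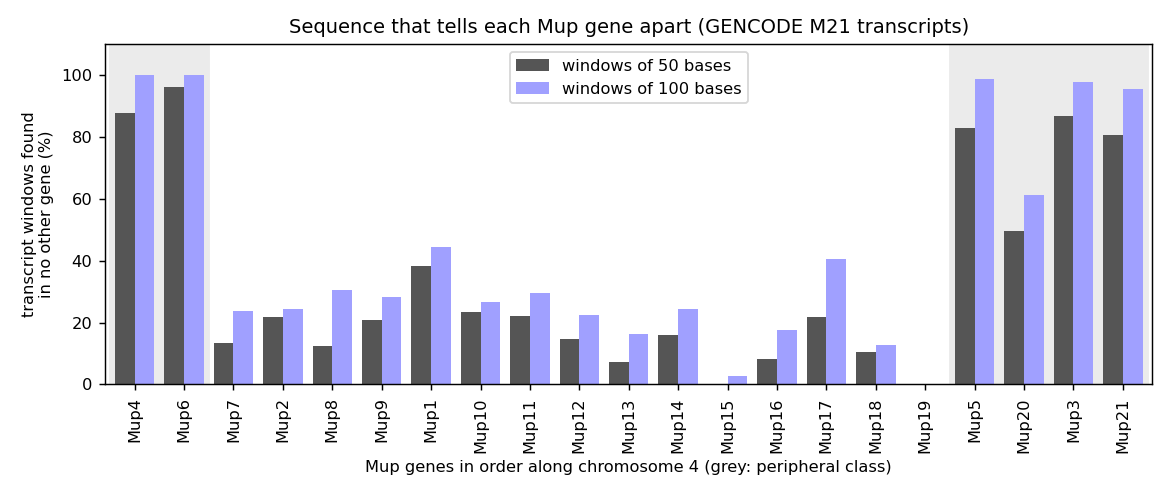
Share of transcript windows of 50 bases (dark) and 100 bases (light) that occur in no other gene of GENCODE M21, for each Mup gene in order along chromosome 4. Peripheral genes (grey ground) reach 49.5% or more with windows of 50 bases, and central genes 38.4% or less, with Mup15 and Mup19 at 0.

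The table nevertheless assigned fragments to genes with no window of their own. Mup15 and Mup19 had no unique window of 50 bases, and Mup19 none of 100 bases. Mup15 was given 134560 fragments in the TH-treated NASH library, 18641 in the NASH library and 28922 in the control library, and Mup19 was given 1959, 1003 and 975. No source used here says how fragments matching several copies were placed, so the split among central genes may owe something to the rule of placement, which was not tested. Among members with mostly unique windows of 50 bases, Mup21 was 14.3-fold lower in TH-treated NASH than in NASH, while Mup3 (1.51-fold lower) and Mup6 (1.10-fold higher, 0.717 to 1.69) were within 2-fold. Mup-ps23, with all of its windows unique, was 41.7-fold higher (18.8 to 115) on 204 fragments in the TH-treated NASH library and 6 in the NASH library, and it passed the filter only through the TH-treated NASH library.

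The hormone axis that sets male liver transcription was read beside the cluster. Counts of this list and the next ones stand beside the shares of all genes past the filter. These were 2.73% higher and 2.77% lower for TH-treated NASH against NASH. They were 3.33% and 0.774% for NASH against control, and 5.57% and 2.42% for TH-treated NASH against control. Of 12 genes of the growth hormone and STAT5 axis, 11 passed the filter for TH-treated NASH against NASH, and 2 were higher and 0 lower (median log2 ratio 0.49). These were Igf1, the main growth hormone target, at 117, 56.9 and 71.3 FPKM in the TH-treated NASH, NASH and control libraries, and Cux2, a repressor normally found in female liver, at 1.41, 0.0252 and 0.0813 FPKM. Ghr, the growth hormone receptor, had 75.8, 131 and 127 FPKM, Stat5b, the factor that carries its signal, had 14.6, 11.6 and 10.6 FPKM, and Bcl6, a repressor that favours male genes, had 5.83, 12.5 and 6.83 FPKM. On the log2(FPKM + 1) scale these 3 stayed within 2-fold. By its raw FPKM ratio Bcl6 was 2.14-fold lower in TH-treated NASH than in NASH (1.98 to 2.31). For NASH against control 0 of 10 were higher and 1 was lower, Cish, a feedback inhibitor, at 2.71 FPKM in the NASH library and 6.62 FPKM in the control library. Of 14 liver transcription factors and known regulators of Mup genes, 0 were higher and 0 lower in TH-treated NASH against NASH (median log2 ratio -0.38) and in NASH against control (median -0.05). For TH-treated NASH against control the hormone axis list had 2 higher and 0 lower of 11 (median -0.07), and the regulator list 1 higher and 0 lower of 13 (median -0.39). The regulator list holds Rsl1, a repressor of sex-biased liver genes, at 0.855, 1.05 and 1.18 FPKM in the TH-treated NASH, NASH and control libraries.

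Other sex-biased liver genes were counted in the same way, with the same shares of all genes beside them. Of 14 male-biased genes, 3 were higher and 5 lower in TH-treated NASH against NASH (median log2 ratio -0.26), and 0 were higher and 6 lower in NASH against control (median -0.81). In TH-treated NASH against control 0 of the 14 were higher and 9 lower (median -1.41). Cyp4a12a, a fatty acid hydroxylase of male liver, had 1.26 FPKM in the TH-treated NASH library, 104 FPKM in the NASH library and 137 FPKM in the control library. Serpina1e, a protease inhibitor gene, had 2635, 431 and 6572 FPKM in those libraries and so did not move with Cyp4a12a. Of 14 female-biased genes, 11 passed the filter for TH-treated NASH against NASH, of which 10 were higher and 0 lower (median 2.87), and most of them passed only through the TH-treated NASH library. Examples were Cyp17a1, a steroid hydroxylase, at 207, 14.5 and 4.57 FPKM in the TH-treated NASH, NASH and control libraries, and Cyp3a44, at 97.4 FPKM in the TH-treated NASH library and 0 FPKM in the NASH and control libraries. For NASH against control 4 female-biased genes passed, with 3 higher and 1 lower, and only Cyp17a1 of these reached 1 FPKM in both libraries. For TH-treated NASH against control 11 passed, most of them only through the TH-treated NASH library, with 11 higher and 0 lower (median 2.81).

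Of 22 abundant secreted liver proteins, 3 were higher and 0 lower in TH-treated NASH against NASH (median log2 ratio 0.44). Among all genes past the filter 2.73% were higher and 2.77% lower there. In NASH against control 0 of the 22 were higher and 0 lower (median -0.40). In TH-treated NASH against control 1 was higher and 1 lower (median -0.19). Their summed FPKM was 100636 in the TH-treated NASH library, 102062 in the NASH library and 120672 in the control library. Alb, the albumin gene, had 14907, 20265 and 32685 FPKM in those libraries. In FPKM, albumin was thus above the whole Mup sum in the control and NASH libraries and below it in the TH-treated NASH library. In fragments, which are not scaled to gene length, albumin was above the whole family in each library. In the TH-treated NASH library this was 1166504 against 808743 fragments.

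**Figure D5:**
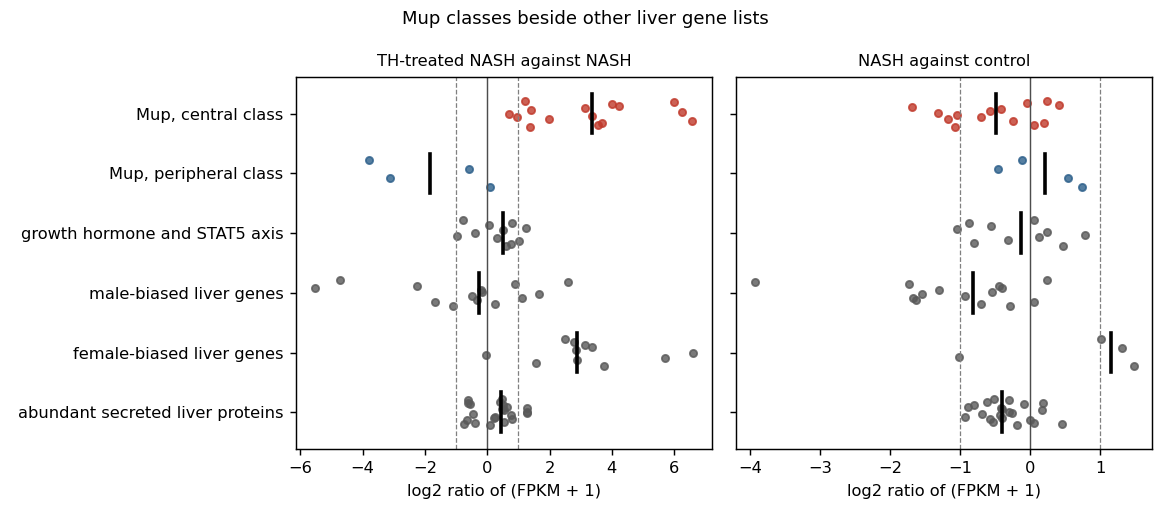
Log2 ratio of (FPKM + 1) for the genes of each list past the filter, for TH-treated NASH against NASH (left) and NASH against control (right), with a bar at each list's median and dashed lines at 2-fold. On the left the central Mup genes centre on 3.37 and the peripheral ones on -1.85, and the secreted liver proteins on 0.44.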

How the data were processed

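PolyA RNA of mouse liver was sequenced from 3 libraries, 1 per group. The authors deposited 1 table of FPKM per gene, with gene length, for all libraries. TopHat2 and HTSeq are named per the submitters' processing notes (no versions). Strand setting, genome build and the placement of multiply mapped reads were details not given in the sources used here. FPKM times gene length came out as whole multiples of 1 step per library within 0.01 fragment for 100% of values, so fragments per gene were recovered.

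Members were rows whose name begins with Mup and a digit or hyphen. Ratios used log2(FPKM + 1), a minimum of 1 FPKM in either library and a 2-fold threshold. Levels have exact Poisson and ratios exact binomial (Clopper-Pearson) 95% intervals, and a level of 0 was set to a floor of 3 fragments per library for a bound. Named were every member at 1 FPKM or more in any library, genes inside the cluster or the 5 nearest on each side, and at most 4 genes of each list per comparison with the largest ratios, plus Ghr, Stat5b, Bcl6, Cux2, Rsl1 and Alb. The members and lists were chosen with earlier results of these data known. Of the 51 identifiers, 48 were in GENCODE M21, all 48 at the same coordinates as in the table, and windows, coding identities and promoters (RefSeq, GRCm38.p6) were read from the annotation. GENCODE M21 also holds Mup22, which is not in the table and counted as another gene when unique windows were sought. Fragment recovery, fold calls and intervals were tested on simulated counts in which no Mup gene was changed and no reads were shared. The placement of shared reads was therefore not tested. Python 3.11.15, pandas 2.3.3, numpy 2.4.6 and scipy 1.17.1 were used.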

Additional observations from a re-analysis of the deposited data

How the results depend on the processing

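As deposited, the log2 ratios of the whole, peripheral and central sums were 0.21, -1.60 and 3.004 for TH-treated NASH against NASH. For the other comparisons they were -0.05, 0.05 and -0.73 for NASH against control and 0.15, -1.55 and 2.28 for TH-treated NASH against control. After median-of-ratios scaling, the 3 ratios were 0.25, -1.56 and 3.04 for TH-treated NASH against NASH. For the other comparisons they were -0.27, -0.16 and -0.94 for NASH against control and -0.023, -1.73 and 2.10 for TH-treated NASH against control. After TMM scaling, the 3 ratios were 0.19, -1.62 and 2.99 for TH-treated NASH against NASH. For the other comparisons they were -0.23, -0.12 and -0.91 for NASH against control and -0.036, -1.74 and 2.09 for TH-treated NASH against control. With the 50 most abundant genes left out of the library total, the 3 ratios were 0.20, -1.61 and 2.99 for TH-treated NASH against NASH. The other comparisons gave -0.073, 0.032 and -0.75 for NASH against control and 0.12, -1.58 and 2.24 for TH-treated NASH against control. As sums of fragment shares, the 3 ratios were 0.21, -1.56 and 2.96 for TH-treated NASH against NASH. The other comparisons gave -0.069, 0.041 and -0.75 for NASH against control and 0.14, -1.52 and 2.21 for TH-treated NASH against control. Without the most abundant member, which was Mup3 for the whole and peripheral sums and Mup17 for the central sum, the 3 ratios were 0.50, -3.13 and 2.62 for TH-treated NASH against NASH. The other comparisons gave 0.22, 0.51 and -0.90 for NASH against control and 0.72, -2.62 and 1.72 for TH-treated NASH against control. Restricted to members with at least 50% of their windows of 50 bases unique, the whole and peripheral sums had log2 ratios of -0.65 and -0.65 for TH-treated NASH against NASH, -0.44 and -0.44 for NASH against control, and -1.09 and -1.09 for TH-treated NASH against control. No central gene met that limit, so the central sum had no value there, and Mup20, at 49.5%, was left out by it. Restricted to protein-coding members, the whole sum had log2 ratios of 0.20 for TH-treated NASH against NASH and 0.15 for TH-treated NASH against control. The central sum kept its direction in each of these settings, and so did the peripheral sum in both comparisons with hormone, while the whole sum and the peripheral sum of NASH against control changed direction as the values show. The cause was not tested.

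The counts of members depended mainly on threshold and on unique sequence. For TH-treated NASH against NASH a 1.5-fold threshold gave 4 lower members, and the members with mostly unique sequence gave 1 higher and 1 lower. For NASH against control the count of 1 higher member became 2 with a pseudocount of 0.1 FPKM, 0 with a pseudocount of 5 FPKM, 4 at 1.5-fold, and 0 at 4-fold, among protein-coding members and among those with mostly unique sequence. The 6 lower members became 0 at 4-fold and 1 among members with mostly unique sequence. For TH-treated NASH against control the 17 higher members became 10 among protein-coding members and 1 among those with mostly unique sequence, and the 4 lower members became 7 at 1.5-fold. Of the called members, 19 of 20, 4 of 7 and 19 of 21 in the 3 comparisons stayed past 2-fold with a pseudocount of 5 FPKM, and all did under the 4 scalings. Those lost were Mup-ps17 in the first comparison, Mup1, Mup-ps14 and Mup-ps20 in the second, and Mup-ps15 and Mup-ps17 in the third.

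The median log2 ratio of all genes for NASH against control was 0.12 on the deposited scale, -0.07 with median-of-ratios and -0.03 with TMM scaling, so member ratios shift by about that much. No paired analysis was possible because each group had 1 library. With 1 library per group, differences between animals, batches and conditions cannot be told apart. Levels of single central genes and of many pseudogenes rest on an unstated placement of shared reads.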

Other observations

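Other liver lipocalins, relatives of the MUPs in the same fold family, were also measured. Of 12 named, 11 were in the table and 10 passed 1 FPKM for TH-treated NASH against NASH, with 5 higher and 1 lower (median log2 ratio 1.10). Among all genes past the filter 2.73% were higher and 2.77% lower there. The shares were 3.33% and 0.774% for NASH against control, and 5.57% and 2.42% for TH-treated NASH against control. Orm2, an acute-phase glycoprotein, had 682 FPKM in the TH-treated NASH library, 52.2 FPKM in the NASH library and 33.6 FPKM in the control library. Lcn2, an iron-siderophore binder of inflammation, had 372, 58.3 and 24.02 FPKM in those libraries. Apom, a carrier of sphingosine phosphate on lipoproteins, had 379, 75.9 and 199 FPKM. Orm1, a further acute-phase glycoprotein, had 3389, 1009 and 1237 FPKM. For NASH against control 2 of 9 lipocalins were higher and 1 was lower, the lower one being Apom. For TH-treated NASH against control 5 of 10 were higher and 1 was lower (median 1.19).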
